A study of Homo sapiens with 9 samples.

Results

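The comparison described here set CDK12-6 siRNA against luciferase siRNA in OVCAR-8, a long-established human ovarian cancer line, and followed the abundant transcripts that differed moderately. Its members were the genes with a mean of at least 20 RPKM over the 6 libraries compared and a difference of 1.4- to 2-fold on the log2(RPKM + 1) scale, in either direction. RPKM divides reads by gene length in kilobases and by library size in units of 1000000 reads, and the pseudocount of 1 means that folds of low genes are understated. Of 57773 listed genes, 15208 had at least 1 RPKM in at least 3 libraries and were tested, and 2368 of these reached 20 RPKM. Among them 273 were members, of which 94 were higher with CDK12-6 (3.97% of the 2368) and 179 were lower (7.56%). A further 13 genes of that level were over 2-fold higher and 50 over 2-fold lower, and these are described only where a result needs them. The size of the difference chose the members, so the differences and calls of members are a description, and the number of members that passed the test is no support for a change.

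The study knocked CDK12 down with a pair of siRNAs, CDK12-2 and CDK12-6, and compared each with a luciferase siRNA, against a gene that human cells lack. Cells of all groups grew in RPMI-1640 with 8% fetal bovine serum, and RNA was taken 48 h after transfection. Each group has 3 libraries, numbered AK39, AK41 and AK49, 9 in all. The labels call the replicates technical, so p-values measure the spread between libraries of 1 line and not between separate cultures or patients. Every group, controls included, is a transfected culture of the same line, and an untransfected culture was not analysed here.

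CDK12 is a kinase that works with cyclin K and phosphorylates the repeat-rich tail of RNA polymerase II, which couples transcription to RNA processing. It is known for sustaining transcription of long genes and the use of full-length 3' ends, and for the expression of DNA repair genes. Abundant transcripts of a carcinoma line include the actin skeleton, surface adhesion molecules, the translation machinery and the mitochondrial genome. An siRNA guides cleavage of a matching transcript, and it can also lower other transcripts whose 3' untranslated region (UTR) pairs with bases 2 to 8 of the guide, as a microRNA does.

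A single 7-base string, GTGGGCA, was known from earlier work on these data to be frequent in the 3' UTRs of lower genes. The siRNA sequences were not used here, so whether the string pairs with either siRNA was not tested. It is shown here as it stands in the annotated 3' UTRs of the 6 most abundant lower members that hold it and of POLR2A, the only higher member that does. Sequences are from GENCODE 29 transcripts, 5' to 3' on the transcript strand, with GRCh38 positions, and capitals mark the string.
PRDX1 (chr1:45511285-45511307, minus strand): aggctgcgGTGGGCAgccatgag
UBE2S (chr19:55400815-55400837, minus strand): tttcccttGTGGGCAgcaaagcc
DDX21 (chr10:68983863-68983885, plus strand): aacttcaaGTGGGCAagctgggg
TMPO (chr12:98548115-98548137, plus strand): tttttaatGTGGGCAtcttattt
TOMM20 (chr1:235111216-235111238, minus strand): gaatgtatGTGGGCAaccaggcc
RCC1 (chr1:28538514-28538536, plus strand): acatggctGTGGGCAactataag
POLR2A (chr17:7499522-7499536, plus strand): GTGGGCAgtggggct
PRDX1 encodes a peroxiredoxin, UBE2S a ubiquitin-conjugating enzyme, DDX21 a nucleolar RNA helicase, TMPO the lamina-associated thymopoietin, TOMM20 a receptor of the mitochondrial import pore, RCC1 the exchange factor of the GTPase RAN and POLR2A the largest subunit of RNA polymerase II. PRDX1, UBE2S and TMPO each hold the string 2 times. In POLR2A it begins at the first base after the stop codon of the transcript used, whose annotated 3' UTR has 237 bases. Only the longest coding transcript of each gene was searched. Whether the 3' UTRs of other POLR2A transcripts hold the string was not tested.

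CDK12 itself, whose level is under the 20 RPKM limit, had 8.33, 7.09 and 8.403 RPKM in luciferase libraries AK39, AK41 and AK49 and 2.09, 2.37 and 2.75 RPKM in the CDK12-6 libraries of the same order, which is the order used for all values that follow. Every CDK12-6 library lay under every control, and the mean was 69.7% lower (log2 difference -1.39 ± 0.11, adjusted p = 5.3e-05). Here and below a log2 difference is CDK12-6 minus luciferase on the log2(RPKM + 1) scale, ± is its standard error (SE, n = 3 libraries per group) and the adjusted p is from limma over all tested genes. CDK13, its closest relative, had 4.97, 4.15 and 5.08 RPKM with luciferase siRNA and 3.94, 4.81 and 5.72 RPKM with CDK12-6, and the groups overlapped (adjusted p = 0.95).

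Reads in listed genes numbered 104963048 to 131472019 per library over the 6 libraries. Over all tested genes 26% passed the test (limma, adjusted p under 0.05), 10.4% higher and 15.6% lower. With libraries rescaled to their reads in listed genes, 2803 genes were called higher and 2769 lower, against 1584 and 2377 as deposited. The median over genes of 20 RPKM or more was -0.04 as deposited, and over all tested genes it moved from -0.04 to 0.02 with that rescaling. Libraries of 1 group differed from each other along transcript GC content: over 1892 coding genes of 20 RPKM or more, the Spearman's rho between GC and the deviation from the group mean was 0.52, -0.62 and 0.59 in the luciferase libraries and -0.52, -0.74 and 0.62 in the CDK12-6 libraries. Reads of small nuclear and nucleolar RNAs were 279 to 386 per 1000000 with luciferase siRNA and 273 to 445 with CDK12-6, with the highest value in CDK12-6 AK39. Epithelial carcinoma markers were present, with 6 of 10 at 1 RPKM or more in all 6 libraries and summed levels of 429 to 512 RPKM with luciferase siRNA and 442 to 555 RPKM with CDK12-6. KRT19, MUC16 and MECOM, further epithelial markers, were at or near 0. Of 8 fibroblast markers only COL1A1 reached 1 RPKM in all 6 libraries, and the summed levels were 13.5 to 23.8 and 17.3 to 38.6 RPKM. Of 7 leukocyte markers only CD68 did, at a mean of 15.4 RPKM with luciferase siRNA and 4.53 RPKM with CDK12-6, while CD3E was 0 in all 6 and PTPRC was under 0.1 RPKM. All 4 endothelial markers were under 1 RPKM. The part of these markers in the results was not tested, and in bulk RNA fewer cells of a type and less RNA per cell cannot be told apart.

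**Figure D1:**
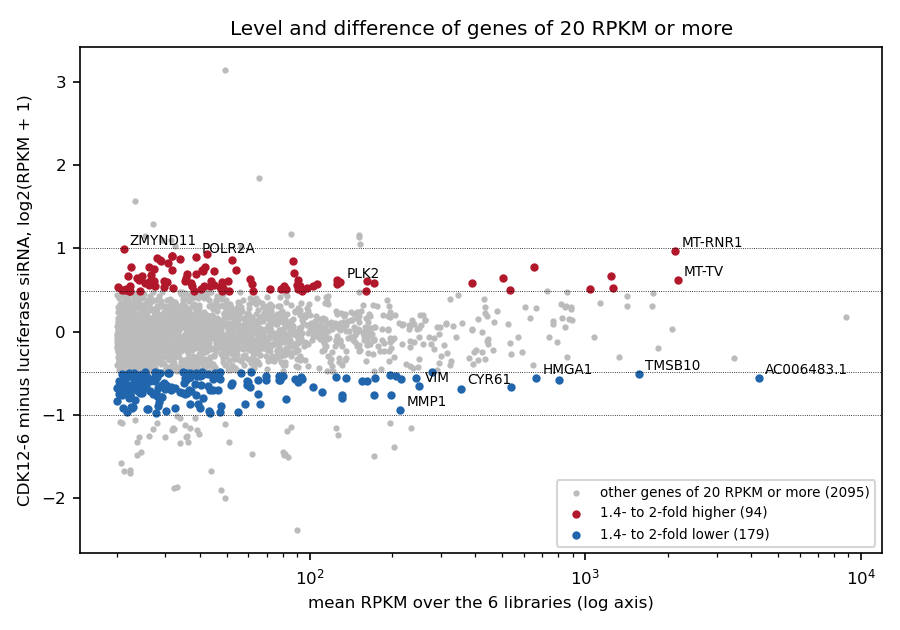
Mean RPKM over the 3 luciferase and 3 CDK12-6 libraries (log axis) against the log2(RPKM + 1) difference, CDK12-6 minus luciferase, for the 2368 genes of 20 RPKM or more. Red points are the 94 members 1.4- to 2-fold higher, blue points the 179 members 1.4- to 2-fold lower, grey points all others, and dotted lines the fold limits; most members lie under 100 RPKM, and the most abundant ones are actin-related genes below 0 and mitochondrial RNAs above it.

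Of the 94 higher members, 75 passed the test over all 15208 genes, beside 7.73% of genes of 20 RPKM or more called higher, and in 86 the groups did not overlap, beside 13%. Of the 179 lower members, 162 passed, beside 15.1% called lower, and 164 had groups that did not overlap, beside 22.5%. The median log2 difference was 0.60 for the higher and -0.64 for the lower members. With CDK12-2, compared with the same control libraries, the medians were 0.61 and -0.63. No member passed the test of CDK12-6 against CDK12-2 in limma, where 0 of 15208 genes did and 101 had an unadjusted p under 0.05, among them 1 member. Rescaling to reads in listed genes or quantile normalization left the sign of all 273 as it was, while the rescaling moved the number of genes in the range to 130 higher and 128 lower.

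Within the libraries of each number, the median difference of the lower members was -0.87 in AK39, -0.50 in AK41 and -0.57 in AK49, and all 179 were below 0 in each. The higher members had medians of 0.50, 0.73 and 0.62, with 92, 92 and 94 of the 94 above 0. Members were chosen by their mean difference over these same libraries, so such medians and signs are a description and no support. Over all genes of 20 RPKM or more the medians were -0.17, 0.03 and -0.01. Beside this, the Spearman's rho between the difference and transcript GC over the 1892 coding genes was -0.44 in AK39, -0.01 in AK41 and -0.02 in AK49. Lower coding members had a median transcript GC of 54.1%, against 46.4% for the higher ones and 48.0% for genes that differed less than 1.4-fold. The part of GC-related library differences in the results was not tested.

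Fold and level limits cut through a continuous range. Just inside 1.4-fold were TMEM59 (0.49), CTC-297N7.10 and MIR632 among the higher and EWSR1 (-0.49), IFRD2 and CD59 among the lower. Just outside were ASNA1 (0.48), MRPL30 and RP11-1035H13.3, and TUBG1 (-0.48), ARHGDIA and LONP1. At the 2-fold limit ZMYND11 (0.99), MT-RNR1 and EXT1 lay just inside and SPDL1 (1.01), RHOBTB3 and ARL6IP1 just outside, while C12orf75 (-0.98), FLOT1 and EMP1 lay just inside and PYGL (-1.01), PLEC and PPP1R15A just outside. At the level limit FDFT1, MEPCE and ZMYND11 (20.2 to 21.2 RPKM) and DDAH2, APEH and PPP1R11 (20.04 to 20.13 RPKM) were inside, and ADSS, CDKN1B and H3F3A (19.5 to 19.7 RPKM) and DFFA, CORO1B and POLDIP2 (19.86 to 19.98 RPKM) were outside.

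**Figure D2:**
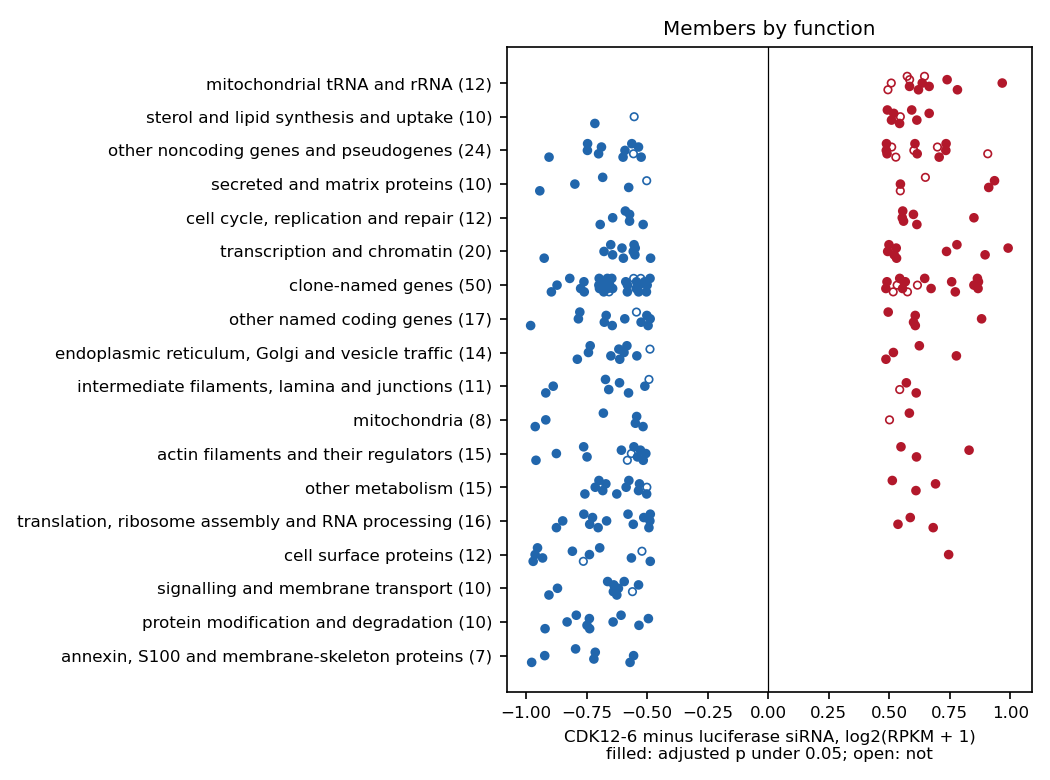
Log2(RPKM + 1) difference, CDK12-6 minus luciferase siRNA, of the 273 members, 1 point each, in 18 groups assigned by hand from known function, with the number of members after each name. Filled points passed the test and open points did not; mitochondrial tRNAs and rRNAs lie on the higher side, and the groups of annexins and S100 proteins, protein modification, and signalling on the lower side.

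Genes of the actin skeleton were mostly on the lower side. Among 12 lower members were the sequestering protein TMSB10, cytoplasmic actin itself (ACTB), the nucleotide exchange factor PFN1, the filament crosslinker FLNA, the tropomyosin TPM4, the capping protein CAPG, the recycling factor CAP1, the ARP2/3 subunit ARPC4, the myosin light chain MYL9, the GTPase RHOC, the phosphatase inhibitor PPP1R14B and the troponin TNNT1. TMSB10 (ENSG00000034510, chr2:85132749-85133795 in hg19) was the most abundant, with 2223, 1505 and 1819 RPKM with luciferase siRNA and 1180.0, 1292 and 1393 RPKM with CDK12-6 (log2 difference -0.51 ± 0.16, adjusted p = 0.047). The groups did not overlap, but the lowest control, AK41, lay close to the highest CDK12-6 library, AK49. ACTB (ENSG00000075624, chr7:5566782-5603415) had 1139, 753 and 1008 RPKM in the controls and 526, 619.7 and 790.0 RPKM with CDK12-6, and here control AK41 lay below CDK12-6 AK49, so the groups overlapped (adjusted p = 0.075). FLNA overlapped in the same way (adjusted p = 0.12).

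CAPG, TNNT1 and CAP1 varied less between libraries. CAPG had 49.1, 49.5 and 48.5 RPKM with luciferase siRNA and 28.1, 29.4 and 27.96 RPKM with CDK12-6, a log2 difference of -0.76 ± 0.072 (SE), adjusted p = 1.2e-04. TNNT1, a troponin of slow muscle that this line expresses, had 41.3, 39.6 and 39.1 RPKM in the controls and 19.1, 20.96 and 20.3 RPKM with CDK12-6 (-0.96 ± 0.077, adjusted p = 5.8e-05). In both, the 3 values of a group lay within a few RPKM of each other and far from the other group. PFN1 had 324, 249 and 299 RPKM in the controls and 174, 196 and 222 RPKM with CDK12-6 (-0.55 ± 0.14, adjusted p = 0.017). The calls of CAPG, TNNT1, CAP1 and PPP1R14B held under all 17 alternatives tried, and those of TMSB10, PFN1 and ARPC4 were lost under 9, 7 and 6 of them. Over the list of actin skeleton genes, 28 of 91 tested passed lower and 4 higher, beside 15.6% and 10.4% of all tested genes, with a median of -0.19 against -0.04 over all tested genes.

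On the higher side stood the tropomyosin TPM1, the actin-binding MARCKS relative MARCKSL1 and the membrane scaffold SLC9A3R1. TPM1 (ENSG00000140416, chr15:63334831-63364114) had 22.4, 20.7 and 22.5 RPKM with luciferase siRNA and 35.7, 39.8 and 43.5 RPKM with CDK12-6 (0.83 ± 0.11, adjusted p = 5.5e-04), and its call held under all 17 alternatives. TPM4, with 49.3, 44.4 and 48.1 RPKM in the controls and 29.7, 33.1 and 34.8 RPKM with CDK12-6, moved the other way (-0.53 ± 0.10, adjusted p = 0.005). Both encode filament-stabilising tropomyosins, and each had groups that did not overlap. MARCKSL1 and SLC9A3R1 lost their calls under 9 and 7 alternatives.

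Annexins, S100 proteins and large membrane-skeleton proteins had 7 lower members and no higher one. They were ANXA2, which binds phospholipid and S100A10, the calcium binders S100A11 and S100A2, the giant scaffold AHNAK, the lipid raft protein FLOT1 and the membrane-contact or repair proteins ESYT1 and MYOF. ANXA2 (ENSG00000182718, chr15:60639333-60695082) had 197, 230.2 and 189 RPKM in the controls and 148, 148 and 122 RPKM with CDK12-6 (-0.56 ± 0.11, adjusted p = 0.0054). S100A2 had 30.8, 28.1 and 25.2 RPKM in the controls and 14.4, 15.1 and 13.2 RPKM with CDK12-6 (-0.92 ± 0.094, adjusted p = 1.7e-04). FLOT1, at 62.3, 50.7 and 61.2 RPKM in the controls and 26.3, 28.4 and 32.3 RPKM with CDK12-6, was next to the 2-fold limit (-0.98 ± 0.12, adjusted p = 4.2e-04). AHNAK had 175, 134.3 and 187 RPKM in the controls and 71.2, 94.5 and 123.2 RPKM with CDK12-6 and a wider spread (-0.80 ± 0.24, adjusted p = 0.036), and its call was lost under 7 alternatives, as were those of ESYT1 and MYOF. Over the annexin and S100 list, 8 of 17 tested genes passed lower and 1 higher, beside the same 15.6% and 10.4%, with a median of -0.42 against -0.04.

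Intermediate filaments, the lamina and junctions split by gene. VIM, the filament protein of mesenchymal cells, had 317, 271 and 327 RPKM with luciferase siRNA and 169, 191 and 219 RPKM with CDK12-6 (-0.66 ± 0.13, adjusted p = 0.0063), and its groups did not overlap. VIM-AS1 and RP11-124N14.3, which overlap the span of VIM, were lower by a like amount (-0.56 and -0.67). Since the kit does not mark strand, their reads may not be separable from those of VIM. The lamina genes TMPO and LMNA were lower, at 60.98, 65.9 and 59.6 RPKM in the controls and 32.9, 34.6 and 31.9 RPKM with CDK12-6 for TMPO (-0.89 ± 0.078, adjusted p = 8.9e-05) and -0.51 ± 0.13 for LMNA (adjusted p = 0.018). TMEM43, a protein of the inner nuclear membrane, and MAP1B, a microtubule-associated protein, were lower as well. The calls of LMNA and TMEM43 were lost under 6 and 7 alternatives. The junction protein desmoplakin (DSP) was lower by its mean but its groups overlapped (adjusted p = 0.12).

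In the opposite direction, the simple-epithelium keratin KRT7 had 50.9, 45.9 and 50.9 RPKM in the controls and 64.7, 71.5 and 85.7 RPKM with CDK12-6 (0.57 ± 0.12, adjusted p = 0.0082). The other simple-epithelium keratins KRT8 and KRT18 were not members. KRT8 had means of 225 RPKM with luciferase siRNA and 237 RPKM with CDK12-6, and KRT18 had 166 and 156 RPKM. N-cadherin (CDH2), a junction protein of mesenchymal and neural cells, had 23.7, 20.9 and 25.2 RPKM in the controls and 30.2, 36.98 and 41.4 RPKM with CDK12-6 (0.61 ± 0.16, adjusted p = 0.020), a call lost under 5 alternatives. NEFH, a neurofilament subunit, did not pass (adjusted p = 0.11).

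Surface proteins gave 11 lower members and 1 higher. The lower ones include the laminin-binding integrin subunits ITGA3 and ITGA6, the tetraspanins CD63 and CD9, the complement inhibitor CD59, the epithelial membrane protein EMP1, the ovarian tumour antigen mesothelin (MSLN), FXYD5, a regulator of the sodium pump, and IFITM2, an interferon-induced protein. EMP1 had 70.4, 73.8 and 76.3 RPKM with luciferase siRNA and 35.5, 37.5 and 38.1 RPKM with CDK12-6 (-0.97 ± 0.086, adjusted p = 9.0e-05). ITGA6 had 59.8, 50.97 and 60.8 RPKM in the controls and 24.5, 29.5 and 33.6 RPKM with CDK12-6 (-0.95 ± 0.16, adjusted p = 0.0024), and CD63 had 107, 97.3 and 110.2 RPKM in the controls and 54.4, 60.3 and 63.6 RPKM with CDK12-6 (-0.81 ± 0.10, adjusted p = 5.2e-04). Each of the 3 had a wide gap between the groups, and their calls, with that of CD9, held under all 17 alternatives. MSLN, which is also 1 of the 10 epithelial markers, had 28.8, 23.6 and 34.8 RPKM in the controls and 11.6, 13.7 and 18.2 RPKM with CDK12-6 (-0.96 ± 0.19, adjusted p = 0.0049). The calsyntenin CLSTN1, a membrane protein of the cadherin family, and the TNF receptor TNFRSF1A overlapped between groups and did not pass (adjusted p = 0.071 and 0.054). The single higher member was the WNT receptor FZD2, at 24.1, 19.9 and 25.96 RPKM in the controls and 34.2, 35.3 and 50.9 RPKM with CDK12-6 (0.74 ± 0.18, adjusted p = 0.013). The list of tetraspanins and surface antigens holds only CD59 and CD9 of these members. Of its 30 tested genes 4 passed lower and 5 higher, beside 15.6% and 10.4% of all tested genes, with a median of 0.06.

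Secreted and matrix genes were divided evenly, 5 against 5. Lower were the interstitial collagenase MMP1, the matricellular proteins CYR61 and CTGF, the peptide hormone adrenomedullin (ADM) and cochlin (COCH). MMP1 (ENSG00000196611, chr11:102660651-102668891) had 233, 340.5 and 270.5 RPKM with luciferase siRNA and 153, 159 and 123.5 RPKM with CDK12-6 (-0.94 ± 0.15, adjusted p = 0.0016). WTAPP1, a pseudogene whose span overlaps MMP1, was lower too (-0.91), and their reads may not be separable. CYR61 (ENSG00000142871) had 448, 368 and 487 RPKM in the controls and 218, 268 and 331 RPKM with CDK12-6 (-0.68 ± 0.19, adjusted p = 0.027). Its groups did not overlap, but its call and that of ADM were lost under 7 alternatives, while those of MMP1 and COCH held under all. CTGF, which like CYR61 is a standard target gene of YAP and TEAD factors, overlapped between groups (adjusted p = 0.070). ANKRD1, a muscle ankyrin repeat protein that is also such a target, passed lower, at 171, 219 and 171 RPKM in the controls and 131, 133 and 105 RPKM with CDK12-6 (-0.60 ± 0.13, adjusted p = 0.0076).

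Higher among secreted and matrix genes were the basement membrane collagen COL4A2, EXT1, which builds heparan sulfate chains, the kisspeptin precursor KISS1, the metalloproteinase inhibitor TIMP2 and the galectin-binding LGALS3BP. COL4A2 had 22.2, 16.2 and 26.4 RPKM in the controls and 30.1, 39.8 and 56.1 RPKM with CDK12-6 (0.91 ± 0.26, adjusted p = 0.028). Its lowest CDK12-6 library, AK39, lay next to the highest control, AK49, and its call was lost under 6 alternatives. KISS1 had 22.002, 22.1 and 22.6 RPKM in the controls and 32.3, 32.8 and 33.6 RPKM with CDK12-6 (0.55 ± 0.073, adjusted p = 7.4e-04), with very little spread in either group. TIMP2 and LGALS3BP did not pass (adjusted p = 0.17 and 0.062). Over the list of integrins, matrix and matrix enzymes 22 of 94 tested genes passed higher and 22 lower, beside 10.4% and 15.6% of all tested genes.

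**Figure D3:**
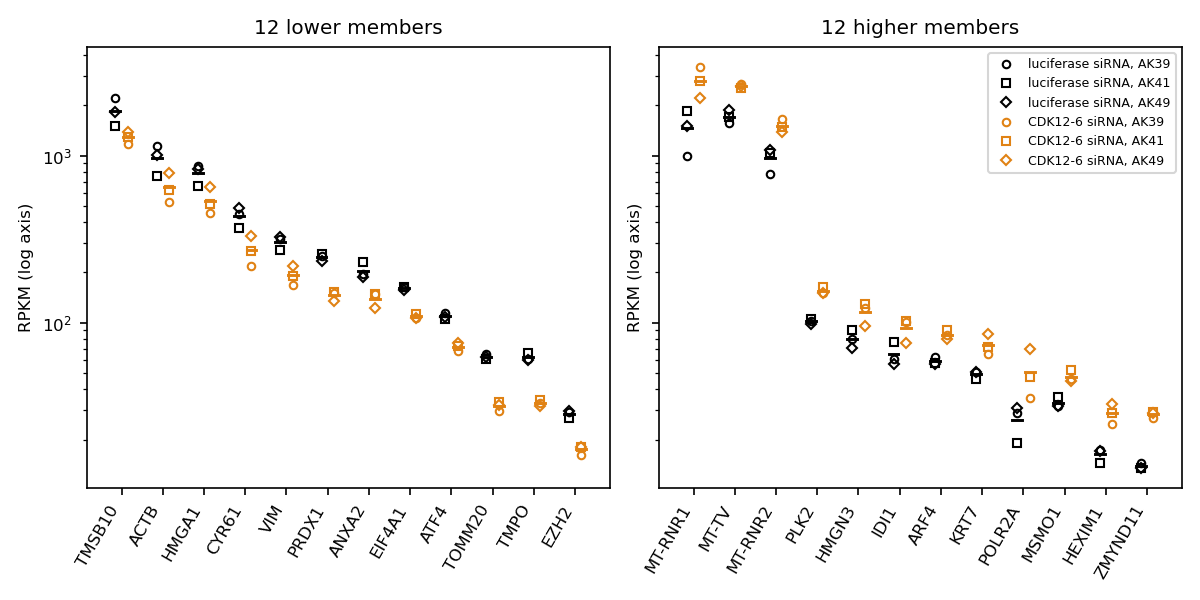
RPKM (log axis) in each of the 6 libraries for 12 lower and 12 higher members, with luciferase siRNA in black and CDK12-6 in orange, a symbol for each library number and a bar at each group's mean. In TMPO and TOMM20 the groups lie well apart, whereas control AK41 lies near the highest CDK12-6 library in TMSB10 and below it in ACTB.

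Genes of sterol and fatty acid synthesis stood mostly on the higher side. They include IDI1, which isomerises isopentenyl diphosphate, FDFT1 and SQLE, which make and oxidise squalene, MSMO1 and DHCR7 of the later steps to cholesterol, the fatty acid desaturase SCD and SPTSSA, a small subunit of serine palmitoyltransferase. MSMO1 (ENSG00000052802, chr4:166248775-166264312) had 31.9, 36.2 and 31.7 RPKM in the controls and 46.3, 52.01 and 44.9 RPKM with CDK12-6 (0.51 ± 0.092, adjusted p = 0.0034), and FDFT1 had 15.9, 17.1 and 15.7 RPKM in the controls and 24.5, 25.1 and 22.8 RPKM with CDK12-6 (0.54 ± 0.076, adjusted p = 9.5e-04). In both the groups did not overlap. IDI1 overlapped in 1 pair of libraries, since control AK41 at 76.4 RPKM lay just above CDK12-6 AK49 at 75.3 RPKM, though it passed the test (0.52 ± 0.15, adjusted p = 0.03). SCD, the most abundant of the group, had 78.4, 62.2 and 83.6 RPKM in the controls and 87.9, 108 and 135 RPKM with CDK12-6 and did not pass (adjusted p = 0.070).

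The calls of IDI1, SQLE and DHCR7 were lost under 8, 8 and 10 of the 17 alternatives. ELOVL1, an elongase of very long fatty acids, passed lower at 28.9, 29.4 and 31.2 RPKM in the controls and 16.6, 17.9 and 18.8 RPKM with CDK12-6 (-0.72 ± 0.086, adjusted p = 4.1e-04). Over the whole list of sterol and fatty acid synthesis, 13 of 39 tested genes passed higher and 4 lower, beside 10.4% and 15.6% of all tested genes, with a median of 0.12 against -0.04.

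Some genes with a direct tie to RNA polymerase II were members, with POLR2A, HEXIM1 and MEPCE higher and POLR2L lower. Over the list of transcription machinery and Mediator, 12 of 137 tested genes passed higher and 22 lower, beside 10.4% and 15.6% of all tested genes, with a median of -0.04, as over all tested genes. POLR2A, the catalytic subunit of the polymerase, had 28.9, 19.2 and 30.96 RPKM with luciferase siRNA and 35.4, 47.4 and 69.6 RPKM with CDK12-6 (0.90 ± 0.29, adjusted p = 0.049). Its groups did not overlap, but the 3 CDK12-6 values spread widely and its call was lost under 8 alternatives. HEXIM1 and MEPCE belong to the 7SK particle, which holds the elongation kinase P-TEFb inactive. HEXIM1 had 17.3, 14.5 and 17.2 RPKM in the controls and 24.7, 29.004 and 32.7 RPKM with CDK12-6 (0.78 ± 0.13, adjusted p = 0.0026), a call lost under 1 alternative, and MEPCE had 17.96, 14.96 and 18.4 RPKM in the controls and 21.1, 24.1 and 28.8 RPKM with CDK12-6 (0.50 ± 0.14, adjusted p = 0.026), lost under 7. POLR2L, a small subunit shared by the RNA polymerases, went lower, at 124, 95.7 and 115 RPKM in the controls and 71.1, 73.7 and 81.5 RPKM with CDK12-6 (-0.55 ± 0.11, adjusted p = 0.0066).

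Chromatin genes lay on both sides. ZMYND11 (ENSG00000015171, chr10:180405-300577), a reader of methylated histone H3.3, had the largest higher log2 difference of any member: 14.4, 13.5 and 13.6 RPKM with luciferase siRNA and 27.03, 29.4 and 29.04 RPKM with CDK12-6 (0.99 ± 0.084, adjusted p = 7.0e-05). The nucleosome-binding protein HMGN3, the histone chaperone NAP1L1 and MORF4L1 of acetylation complexes were higher as well, at log2 differences of 0.52, 0.53 and 0.49. The H3.3 gene H3F3A lay just under the level limit, and its pseudogene H3F3AP4 was a member at a like difference (0.60 and 0.61). Reads of the gene and the pseudogene may have been shared between them. Lower were EZH2, the methyltransferase of polycomb repression, at 29.4, 26.9 and 29.5 RPKM in the controls and 16.3, 18.04 and 18.2 RPKM with CDK12-6 (-0.68 ± 0.091, adjusted p = 7.7e-04), the histone H2A.Z chaperone ANP32E, the centromere protein CENPB and the architectural protein HMGA1. HMGA1 had 872, 658 and 836 RPKM in the controls and 455, 511 and 650.1 RPKM with CDK12-6 (-0.55 ± 0.17, adjusted p = 0.041), a call lost under 8 alternatives. Over the list of chromatin regulators 21 of 158 tested genes passed higher and 21 lower, beside 10.4% and 15.6% of all tested genes, with a median of -0.02.

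Single transcription factors also differed. ATF4, the effector of the integrated stress response, had 115, 106 and 109 RPKM with luciferase siRNA and 67.7, 72.6 and 75.3 RPKM with CDK12-6 (-0.60 ± 0.085, adjusted p = 9.3e-04), and its call held under all 17 alternatives, as did that of TCF19 (-0.93). The forkhead factor FOXD1 and the immediate early gene IER5 passed lower, and the call of FOXD1 was lost under 7 alternatives. CITED2, a co-activator that binds p300, and CBFB, the partner of the RUNX factors, passed higher, at log2 differences of 0.74 ± 0.10 and 0.53 ± 0.12.

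Translation, ribosome assembly and RNA processing contributed 13 lower and 3 higher members, without the core of the ribosome: of 80 cytosolic ribosomal protein genes at 20 RPKM or more none differed by 1.4-fold. EIF4A1, the helicase of the cap-binding complex, had 163, 163 and 158 RPKM with luciferase siRNA and 107, 114 and 107 RPKM with CDK12-6 (-0.56 ± 0.076, adjusted p = 8.2e-04). SENP3-EIF4A1 and SNORA67 overlap its span and were lower by like amounts (-0.54 and -0.59), and their reads may not be separable. EIF1, which monitors start codons, and the valyl-tRNA synthetase VARS passed lower, the call of VARS being lost under 7 alternatives. DDX21, a helicase of ribosomal RNA synthesis, had 74.5, 81.5 and 70.9 RPKM in the controls and 41.4, 42.8 and 38.2 RPKM with CDK12-6 (-0.87 ± 0.087, adjusted p = 1.6e-04), and MRTO4, an assembly factor of the large subunit, had 27.8, 25.6 and 26.2 RPKM in the controls and 14.04, 16.04 and 15.7 RPKM with CDK12-6 (-0.76 ± 0.095, adjusted p = 4.8e-04). Both had groups that lay well apart, and both calls held under all 17 alternatives. RTCA, the RNA 3'-phosphate cyclase, and LSM2, a U6 ring protein, held as well (-0.85 and -0.73). Over the synthetase list 12 of 39 tested genes passed lower and 1 higher, beside 15.6% and 10.4% of all tested genes, with a median of -0.20 against -0.04. Of 81 translation factor genes tested, 9 passed lower and 5 higher, with a median of -0.007. Of 176 splicing factor genes 17 passed lower and 12 higher (median -0.02), and of 65 ribosome biogenesis genes 12 and 2 did (median -0.12).

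On the higher side were EIF4A2, a close relative of EIF4A1, the splicing activator TRA2A and the mRNA export factor SARNP. EIF4A2 (ENSG00000156976, chr3:186500994-186507689) had 33.6, 46.5 and 35.05 RPKM with luciferase siRNA and 60.8, 62.5 and 44.99 RPKM with CDK12-6 (0.54 ± 0.16, adjusted p = 0.031). Control AK41 lay above CDK12-6 AK49, so the groups overlapped, and the call was lost under 8 alternatives. DDAH1 and DDAH2, which both degrade methylated arginines, also went opposite ways, DDAH1 from 37.6, 30.98 and 35.4 to 48.5, 54.1 and 57.4 RPKM (0.61 ± 0.14, adjusted p = 0.0099) and DDAH2 from 27.8, 21.6 and 25.4 to 13.4, 15.04 and 16.99 RPKM (-0.68 ± 0.13, adjusted p = 0.0046). These pairs of relatives, with TPM1 and TPM4, were picked after their values were seen.

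**Figure D4:**
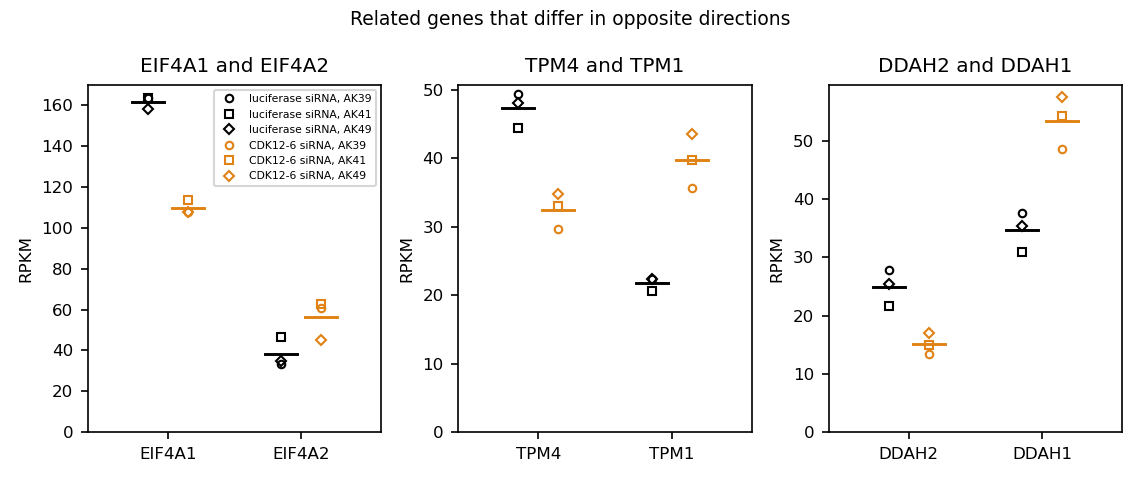
RPKM (linear axis from 0) of EIF4A1 and EIF4A2, TPM4 and TPM1, and DDAH2 and DDAH1 in each of the 6 libraries, with luciferase siRNA in black, CDK12-6 in orange, a symbol for each library number and a bar at each group's mean. In each pair one gene lay lower and its relative higher with CDK12-6, with overlapping groups in EIF4A2 alone.

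The mitochondrial genome gave the most abundant higher members. Both ribosomal RNAs, MT-RNR1 and MT-RNR2, 10 transfer RNAs and MT-ND2, a subunit of respiratory complex I, were in the range. MT-RNR1 had 989, 1860.5 and 1513 RPKM with luciferase siRNA and 3386, 2777 and 2210.4 RPKM with CDK12-6 (0.97 ± 0.27, adjusted p = 0.025). Its libraries spread widely in both groups, and its call was lost under 8 alternatives and that of MT-RNR2 under 7. Beside these rRNAs lie the genes of 2 tRNAs. MT-TF spans bases 577-647 of the mitochondrial genome, MT-RNR1 648-1601, MT-TV 1602-1670 and MT-RNR2 1671-3229. The spans of MT-TY and MT-TC overlap, as do those of MT-TI and MT-TQ. Reads of these tRNA genes may thus not be separable from those of their neighbours. MT-TF had 484, 452 and 498 RPKM in the controls and 875, 813 and 779.7 RPKM with CDK12-6 (0.78 ± 0.10, adjusted p = 4.9e-04), a call held under all 17 alternatives, and MT-TV had 1563, 1694 and 1880.0 RPKM in the controls and 2698, 2553 and 2626 RPKM with CDK12-6 (0.62 ± 0.11, adjusted p = 0.0029), a call lost under 3 alternatives. The log2 difference of MT-TV was between 0.26 and 0.69 over the 17 alternatives. MT-ND2, MT-TI, MT-TW, MT-TQ, MT-TC and MT-TY did not pass (adjusted p from 0.051 to 0.23). Reads on the whole mitochondrial genome were 1.02% to 1.39% of a library with luciferase siRNA and 1.52% to 1.92% with CDK12-6.

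Nuclear genes that copy mitochondrial sequence were also members, among them MTRNR2L2, MTRNR2L8, MTRNR2L9 and MTRNR2L12, copies of MT-RNR2, and MTND2P28, a copy of MT-ND2. Their log2 differences of 0.61, 0.60, 0.71, 0.61 and 0.53 stand beside 0.66 for MT-RNR2 and 0.50 for MT-ND2. MTND2P28 did not pass (adjusted p = 0.092), like MT-ND2, and no source used here says how reads that match both were counted. The kit selects polyadenylated RNA. RPPH1, the RNA of RNase P, which has no poly(A) tail, was a member only through single libraries: it had 13.1, 62.8 and 16.3 RPKM in the controls and 76.9, 47.5 and 16.6 RPKM with CDK12-6 (adjusted p = 0.55), high in luciferase AK41 and in CDK12-6 AK39 and AK41. MIR3687 had the same order of libraries within both groups.

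Of 7 members that are nuclear genes for mitochondrial or import proteins, 6 were lower. TOMM20 and TOMM40, the import receptor and the pore of the outer membrane, SLC25A39, a carrier of the inner membrane, the citrate synthase CS, CHCHD2 and TMEM126A were the lower ones. TOMM20 (ENSG00000173726, chr1:235272651-235292251 in hg19) had 65.03, 60.9 and 62.6 RPKM with luciferase siRNA and 29.5, 33.5 and 32.3 RPKM with CDK12-6 (-0.96 ± 0.094, adjusted p = 1.5e-04), close to the 2-fold limit. CHCHD2 had 158, 141 and 147 RPKM in the controls and 99.4, 104 and 101 RPKM with CDK12-6 (-0.54 ± 0.079, adjusted p = 0.0011). These calls held under all 17 alternatives, while that of TOMM40 was lost under 7. TOMM34, a cytosolic partner of import with chaperones, was higher, at 31.3, 26.5 and 30.7 RPKM in the controls and 39.9, 44.6 and 49.7 RPKM with CDK12-6 (0.58 ± 0.11, adjusted p = 0.0047). Over the list of import and carriers 19 of 85 tested genes passed lower and 6 higher, beside 15.6% and 10.4% of all tested genes, with a median of -0.12 against -0.04. Of 114 tested genes of the respiratory chain and ATP synthase, 5 passed higher and 9 lower (median 0.03), and of 78 mitochondrial ribosomal protein genes 4 and 7 did. Of 71 genes of the respiratory chain and ATP synthase at 20 RPKM or more, 1 was a higher member, MT-ND2, and 1 was over 2-fold lower.

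Protein modification and degradation had 10 lower members and no higher one. All 10 passed the test, beside 162 of all 179 lower members and 15.1% of all genes of 20 RPKM or more called lower. Members were chosen by the size of their difference, so this count is a description. The proteasome genes among them were PSME3, an activator cap, and PSMC5, an ATPase of the base. PSME3 had 59.5, 44.6 and 54.2 RPKM in the controls and 23.9, 27.3 and 30.9 RPKM with CDK12-6 (-0.92 ± 0.16, adjusted p = 0.0024), and PSMC5 had 46.9, 39.4 and 44.6 RPKM in the controls and 22.99, 25.995 and 28.4 RPKM with CDK12-6 (-0.74 ± 0.11, adjusted p = 0.0015). The chaperone-linked ligase STUB1, the deubiquitinase UCHL3, the signalosome subunit COPS6, the modifier SUMO2 and the acyl-peptide hydrolase APEH were lower too, at log2 differences from -0.83 (APEH) to -0.53 (SUMO2). Of 31 proteasome genes at 20 RPKM or more, 7 passed lower and none higher, beside 15.1% and 7.73%. Without that limit, 9 of 47 tested proteasome genes passed lower and 4 higher, beside 15.6% and 10.4% of all tested genes. Among 111 tested ubiquitin enzyme genes 18 passed lower and 4 higher, with a median of -0.04. No gene of the chaperone list (40) or of endoplasmic reticulum folding and translocation (30) at 20 RPKM or more was a member.

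Metabolic enzymes outside lipid synthesis were lower in 12 cases and higher in 3. PRDX1 (ENSG00000117450), which reduces peroxides, had 252, 256 and 235 RPKM with luciferase siRNA and 152, 152 and 135 RPKM with CDK12-6 (-0.76 ± 0.088, adjusted p = 3.4e-04). UAP1, which makes UDP-GlcNAc, had 118, 148 and 115 RPKM in the controls and 83.3, 87.6 and 67.1 RPKM with CDK12-6 (-0.67 ± 0.13, adjusted p = 0.0045). In both, each CDK12-6 library lay under each control. Some enzymes of nucleotide and folate metabolism were lower, namely CMPK1, the ribonucleotide reductase subunit RRM2, NT5C and MTHFD1, at log2 differences of -0.71, -0.63, -0.59 and -0.53. Of 19 nucleotide and one-carbon genes at 20 RPKM or more, 3 passed lower, beside 15.1% of all genes of that level. Among 42 tested genes of the list 9 passed lower and 2 higher, beside 15.6% and 10.4% of all tested genes. PFKP, the platelet phosphofructokinase, passed lower (-0.58 ± 0.17, adjusted p = 0.031), a call lost under 7 alternatives. The span of ENO3 overlaps part of that of PFN1, so its difference (-0.50) may not be separable from that of PFN1 (-0.55). QPRT of NAD synthesis and ALDH9A1 were higher, at 0.69 and 0.51.

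Cell cycle, replication and repair genes were split 6 and 6. PLK2, a p53-responsive polo-like kinase, had 103, 106 and 98.1 RPKM with luciferase siRNA and 152, 163 and 152 RPKM with CDK12-6 (0.60 ± 0.083, adjusted p = 8.7e-04). CCNG1 and TRIAP1, further p53-responsive genes, were higher as well (0.55 and 0.61). Over the list of apoptosis genes and p53 targets, however, 8 of 55 tested genes passed higher and 11 lower, beside 10.4% and 15.6% of all tested genes, with a median of -0.07, and its only member in the range, PHLDA2, was lower (-0.64). The replicative helicase subunit MCM2, the kinetochore protein NDC80 and RCC2, a regulator of small GTPases in mitosis, were also higher, with calls lost under 7, 5 and 3 alternatives. RCC2 had 21.99, 16.5 and 22.4 RPKM in the controls and 29.4, 37.04 and 46.6 RPKM with CDK12-6 (0.85 ± 0.21, adjusted p = 0.015). Lower were UBE2S, which builds ubiquitin chains for the anaphase-promoting complex, at 113, 94.3 and 110.1 RPKM in the controls and 63.6, 66.2 and 83.3 RPKM with CDK12-6 (-0.57 ± 0.13, adjusted p = 0.01), and RCC1 at 50.96, 47.8 and 49.02 RPKM in the controls and 28.8, 31.5 and 33.5 RPKM with CDK12-6 (-0.64 ± 0.089, adjusted p = 9.1e-04). The helicase RECQL4, the phosphatase CDKN3, the acetyltransferase NAA50 and the end-joining factor C9orf142 passed lower too. UBE2SP1, a pseudogene of UBE2S, was lower by a like amount (-0.60), and so was SUMO2P1 (-0.52) beside SUMO2.

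In the secretory pathway 10 members were lower and 4 higher. RAB1B, a GTPase between the endoplasmic reticulum and the Golgi, had 102, 83.7 and 96.6 RPKM in the controls and 54.8, 62.2 and 70.7 RPKM with CDK12-6 (-0.58 ± 0.13, adjusted p = 0.01). SLC35A3, the Golgi carrier of UDP-GlcNAc, had 28.3, 28.4 and 27.7 RPKM in the controls and 15.4, 17.4 and 16.5 RPKM with CDK12-6 (-0.74 ± 0.084, adjusted p = 2.9e-04), the SNARE YKT6 -0.54, the adaptor AP1M2 -0.62 and the GPI transamidase subunit GPAA1 -0.79 on the log2 scale. ARF4, a GTPase of Golgi coats, was higher at 62.1, 57.8 and 56.7 RPKM in the controls and 84.3, 90.1 and 79.8 RPKM with CDK12-6 (0.52 ± 0.088, adjusted p = 0.0026), with ATL3, which fuses tubules of the endoplasmic reticulum, and VPS25 of the ESCRT-II complex (0.78 and 0.62). Over the Golgi and vesicle list 57 of 268 tested genes passed lower and 19 higher, beside 15.6% and 10.4% of all tested genes, with a median of -0.09 against -0.04.

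Signalling and membrane transport genes gave 10 lower members. PEA15, a death-effector phosphoprotein that binds ERK, had 94.1, 75.2 and 87.5 RPKM with luciferase siRNA and 41.1, 47.1 and 50.9 RPKM with CDK12-6 (-0.87 ± 0.13, adjusted p = 0.0013). GNGT2, a G protein gamma subunit, had 30.99, 28.7 and 28.9 RPKM in the controls and 14.8, 15.6 and 15.5 RPKM with CDK12-6 (-0.91 ± 0.083, adjusted p = 1.0e-04). The phospholipase PLCB4, the GTPase RALA, the calcium pump ATP2A2 and the survival factor API5 passed lower, and the cationic amino acid carrier SLC7A1 overlapped between groups (adjusted p = 0.12).

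Members that are not protein-coding in GENCODE 29, or are not in it, numbered 41 of the higher and 36 of the lower. Of these, 29 and 33 overlap the span of another listed gene of at least 1 RPKM, so their reads may not be separable from those of the partner. Spans were compared and exons were not. AC006483.1, the member of the highest level, lies over ACTB and had 5899, 3891 and 5406 RPKM in the controls and 2847, 3204 and 4280.4 RPKM with CDK12-6 (adjusted p = 0.12). UCA1, a long noncoding RNA known from bladder and other carcinomas, was lower, at 47.9, 41.3 and 44.5 RPKM in the controls and 23.6, 26.1 and 28.9 RPKM with CDK12-6 (-0.75 ± 0.11, adjusted p = 0.0015), and overlaps AC004510.3. 

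The 7-base string shown above was found in the annotated 3' UTR of 23 of 135 lower coding members, or 17.04%, and of 1 of 51 higher ones, or 1.96%. Among genes of the same level that differed less than 1.4-fold it was in 137 of 1573 (8.71%), and among those over 2-fold lower in 16 of 38 (42.1%). Over all tested genes under 20 RPKM the share was 15.9%. The UTRs of lower members were shorter than those of genes that differed less, with medians of 651 and 853 bases, and richer in GC, with 46.5% and 40.8%. Turned around, the 177 genes of 20 RPKM or more with the string had a median log2 difference of -0.13 with CDK12-6 and -0.13 with CDK12-2, and 46 of them passed lower and 9 higher. The 1626 without it had medians of -0.04 and -0.07, and 238 passed lower and 125 higher. Genes with the string had longer UTRs (median 2061 against 762.5 bases). Since the string was picked from these data, its shares are a description.

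**Figure D5:**
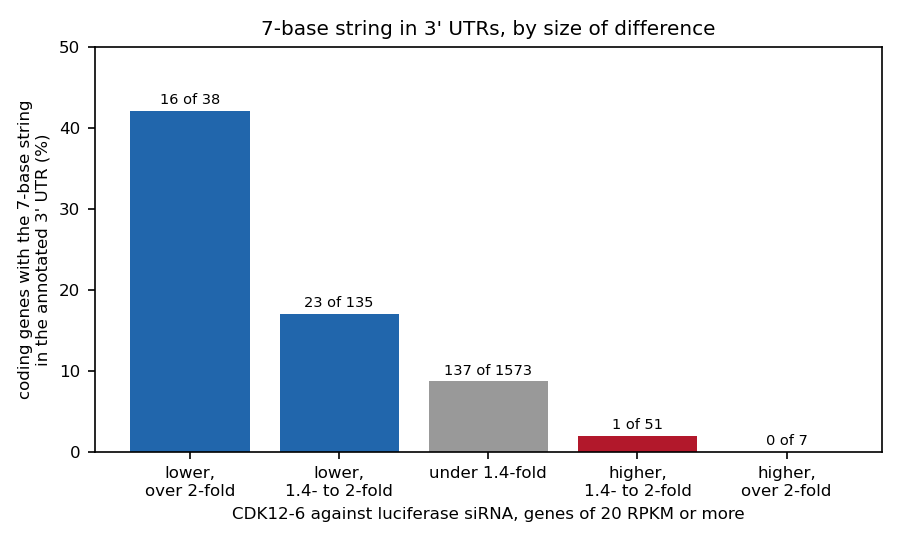
Share of coding genes of 20 RPKM or more whose annotated 3' UTR holds the 7-base string, in percent, by size and direction of the difference between CDK12-6 and luciferase siRNA, with the number of genes above each bar. The share was 42.1% for genes over 2-fold lower, 17.04% for lower members, 8.71% under 1.4-fold and 1.96% for higher members.

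Members with the string are spread over the functional groups. Besides the 6 shown they include the centromere protein CENPB, FAM129B, RTCA, YKT6, SLC7A1, the junction scaffold ERBB2IP, TMEM43, ANKRD13A, TOMM40, EZH2, PLCB4, CLSTN1, ARPC4, SLC35A3, TMED1, MRTO4 and APEH. PRDX1 differed by -0.76 with CDK12-6 and -0.84 with CDK12-2, TMPO by -0.89 and -0.96, TOMM20 by -0.96 and -0.99 and EZH2 by -0.68 and -0.68, both siRNAs against the same controls. POLR2A, the higher member that holds it in the transcript searched, differed by 0.90 and 1.04.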

How the data were processed

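The deposited values are RPKM for 57773 genes with hg19 coordinates, per the file headers. TopHat2, featureCounts, edgeR and hg19 are named in the submitters' processing notes, without settings, and no source used here gives the annotation version. The gene length column holds bases, per the file headers. Multiplied by length, 100% of the RPKM values of each library were whole reads within a tolerance of 0.001. Libraries were made with a poly(A)-selecting kit without strand marks, per the labels' protocols.

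From these, log2(RPKM + 1) was fitted with limma 3.58.1 (eBayes with a trend) in R 4.3.3, with all 9 libraries and 3 groups in 1 fit. The test covered 15208 genes that reached 1 RPKM in 3 or more libraries, with Benjamini-Hochberg adjustment and a threshold of 0.05. The fit was tested on simulated data. A count model was planned only if the unit proved to be counts. The unit is RPKM, so limma on log2(RPKM + 1) stayed the main test. Voom from limma, on recovered reads, was added as an alternative. Groups came from the sample labels. Members, gene lists and the 7-base string were chosen with earlier results of these data known. Genes were named by rule: CDK12 and CDK13, the 12 most abundant members in each direction, up to 4 members per list and direction, and 3 genes on either side of each limit. A few of the genes so chosen are not reported here. The other members named, and the functional groups, were chosen after their values were seen. The 42 lists match gene symbols by spelling, so some members sit in a list by name only: SLC9A3R1 among solute carriers, ERBB2IP among growth factor genes, and CTNNAL1 among junction genes. Transcript features came from GENCODE 29 on GRCh38 in Python 3.11.15, matched by gene ID, and 3' UTRs from the longest coding transcript. Alternatives were another pseudocount, no low-value filter, 2 rescalings, the 6 libraries alone, no trend, a replicate block, each library and each AK number left out, voom, and other limits for the members.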

Additional observations from a re-analysis of the deposited data

How the results depend on the processing

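The number of genes called, 3961, was 1584 higher and 2377 lower. With a library or AK number left out it ranged from 953 without AK41 in all groups to 4000 without CDK12-6 AK49. Fits without luciferase AK39 gave 2316, without luciferase AK49 2533, without CDK12-6 AK41 2408, without CDK12-6 AK39 2838, without AK39 in all groups 1981 and without AK49 in all groups 2638, and these settings have fewer libraries in the fit. Other settings gave 3522 to 5586 calls. The number of higher members, 94, ranged from 73 to 137 with a library or AK number left out, and the number of lower members, 179, from 135 to 261. A level limit of 10 RPKM gave 165 higher and 374 lower members, and one of 40 RPKM gave 50 and 66. Of 237 members called, 76 were still called without AK41 in all groups, 139 without AK39 in all groups, 168 without luciferase AK39 or without CDK12-6 AK41, and 176 with no filter on low values, where 44118 genes were tested; voom kept all 237. All 273 members kept their sign under each setting except 1 without AK39 in all groups. That was RPPH1, at -0.19. CDK13 turned from 0.016 to -0.060 without luciferase AK41, -0.064 without AK41 in all groups and -0.049 without AK49 in all groups, and with 1 library left out it ranged from -0.093 without CDK12-6 AK49 to 0.128 without CDK12-6 AK39. The cause was not tested. Of 199 named genes called, 64 kept the call under all 17 alternatives, 78 lost it under 1 to 3 and 57 under 4 or more.

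With the AK number as a replicate block 5162 genes were called, 2071 higher and 3091 lower, and all 237 members called without it remained called. Deviations of luciferase and CDK12-6 libraries with a shared number correlated at -0.51 for AK39, 0.47 for AK41 and 0.75 for AK49. In that order, luciferase with CDK12-2 gave -0.56, -0.13 and 0.65, and CDK12-2 with CDK12-6 gave 0.76, 0.13 and 0.81. Across numbers, luciferase AK41 correlated at 0.8 with CDK12-6 AK39. The number thus went with shared deviations in some comparisons and not in others, and what it marks was not tested. No edgeR or DESeq2 fit on recovered reads was run.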
